A study of Caenorhabditis elegans with 4 samples.

Results

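ZTF-4 belongs to the zinc-finger proteins, many of which bind DNA, and the peaks described here are its binding regions in Caenorhabditis elegans on the arms of chromosomes II, III, IV and V. An arm was the outer 25% of a chromosome's length at each end, and a peak belonged to it when its midpoint lay outside the middle 50%. Position alone chose the members: 211 of the 855 peaks in the authors' combined list, with 381 others in the centres of the same chromosomes. The data came from chromatin immunoprecipitation and sequencing (ChIP-seq) of hermaphrodites at L1, the first larval stage. All 4 libraries, 2 immunoprecipitated and 2 input, came from strain OP322. Every group therefore shared the mutation unc-119(ed3) and the transgene wgIs322, introduced by biolistic transformation, in which ztf-4 is joined to the tags TY1, EGFP and FLAG and unc119(+) serves as the rescue marker. EGFP is a form of green fluorescent protein (GFP). Chromatin was collected with antibodies against it, so the tagged protein was measured and the untagged one was not. The labels give 20 °C for growth and 26 beside the stage, and no strain without the transgene was included.

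C. elegans chromosomes are holocentric, which means that spindle fibres attach along their whole length. In place of a central centromere, the autosomes have a gene-dense centre with little recombination and 2 arms with more recombination and more repeated sequence. The arms are also known for heterochromatin marks and for contact with the edge of the nucleus. The bounds used here are fixed shares of the length and are not the genetic borders between arm and centre.

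Peak intervals with a q-value each were the only measurements: 379 peaks for replicate 1, 394 for replicate 2 and 855 in the combined list, in the WormBase build WS180. A q-value is a p-value corrected for the number of regions tested, and smaller values mark stronger peaks. No read counts came with the lists, so the depth is unknown, and the lack of a call cannot be read as lack of binding. The lists hold no values for the input libraries. The position of unc-119 in this build was not determined, so whether a peak holds DNA of the rescue marker was not checked. No genome of this build was used, and neither genes nor sequence are given for the peaks.

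The 8 arms held very unequal numbers of peaks. Chromosome II had 8 peaks in its left arm and 35 in its right arm. On III the left arm held 22 and the right arm 36. Chromosome IV carried 42 on the left, the most of any arm, and 28 on the right. The arms of V held 22 on the left and 18 on the right. Per length, the lowest value was 2.13 peaks per Mb in the left arm of II, followed by 3.46 and 4.23 in the right and left arms of V. The highest were 10.5 in the right arm of III, 9.72 in the left arm of IV and 9.32 in the right arm of II. Over all arms the density was 6.31 peaks per Mb, and in the centres of these chromosomes it was 11.4. The right arm of II was the one arm as dense as its own centre, which also held 9.32 peaks per Mb. Together the arm peaks covered 212 kb.

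**Figure D1:**
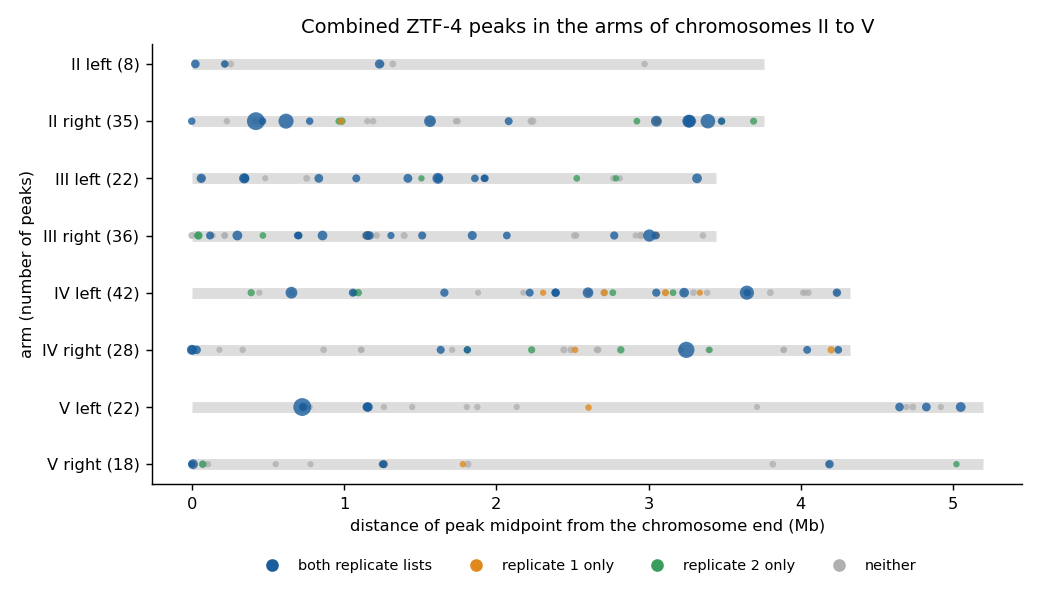
Position of each of the 211 arm peaks as the distance of its midpoint from the chromosome end in Mb (grey bars, the 8 arms to scale). Right ends were taken at the farthest peak in any list. Colour gives the replicate lists in which the peak was found, and larger points have smaller q-values, up to a cap. The left arm of II holds 8 peaks, and the right arm of V has a gap of 2002 kb.

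Whether left and right arms were alike was tested first. Summed over the 4 chromosomes, 94 of 211 arm peaks lay on the left, or 44.5% (95% exact binomial interval 37.7 to 51.5%). This did not differ detectably from 50% (exact binomial test, two-sided, p = 0.13, or 0.364 after adjustment over 10 tests). Lengths were taken from the farthest peak in any list, so each right arm ended at a peak and any empty tip was cut off. Left arms began at the first base and kept their empty tips. A share of 50% does not allow for this, here or on single chromosomes. The sum hid a difference on chromosome II, where 8 of 43 arm peaks lay on the left, or 18.6% (interval 8.39 to 33.4%; exact binomial test, p = 4.19e-05, or 0.000168 after adjustment over 4 chromosomes). The same test was run in each replicate list. Those lists by name share their ChIP libraries with the combined list. Their agreement with it, here and in the tests below, is therefore not independent support. The left arm of II held 3 of 21 arm peaks in replicate 1 (14.3%, adjusted p = 0.00596, exact binomial test) and 4 of 25 in replicate 2 (16%, adjusted p = 0.00364, exact binomial test). Counted as runs, in which peaks with gaps of up to 5000 bp count once, the numbers were 7 on the left and 27 on the right (adjusted p = 0.00329, exact binomial test).

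On the other chromosomes the left share was 37.9% on III, 60% on IV and 55% on V, with adjusted p = 0.159, 0.159 and 0.636 (exact binomial tests). The left shares differed among the 4 chromosomes (exact Freeman-Halton test, p = 6.37e-05), as they did in replicate 1 (p = 0.00474, exact test) and in replicate 2 (p = 0.00184, exact test). This comparison between chromosomes was chosen after the counts were seen. All these tests take peaks as independent, although neighbours are not, and the p-values refer to peaks in these lists and not to animals or cultures. The split on II lost its adjusted threshold in a narrower arm, the outer 20%, where 8 of 29 peaks lay on the left (adjusted p = 0.0965, exact binomial test). It also lost it among the peaks found in both replicate lists, where 3 of 16 lay on the left (18.8%, adjusted p = 0.0851, exact binomial test).

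**Figure D2:**
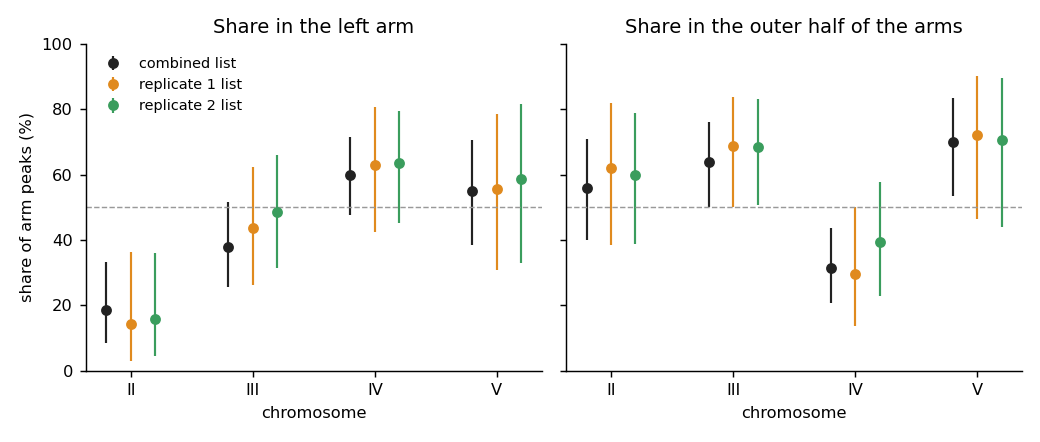
Share of arm peaks (%) in the left arm and in the outer stretch of the arms, by chromosome, in the combined list and in each replicate list. Bars are 95% exact binomial intervals over peaks and the dashed line marks 50%. On II the left share is 18.6, 14.3 and 16% in the 3 lists, and on IV the outer share is below 50% in each.

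Distance from the chromosome ends did not order the peaks in the same way on every chromosome. Each arm was divided at its middle into an outer stretch, within 12.5% of the length from the end, and an inner stretch. Over the 4 chromosomes 111 of 211 peaks were in the outer stretches, or 52.6% (interval 45.6 to 59.5%; exact binomial test, p = 0.491, and the same after adjustment over 10 tests). The tests of outer share by chromosome and between chromosomes that follow were added after the counts were seen. On V 28 of 40 arm peaks were outer (70%, p = 0.0332 after adjustment over 4 chromosomes, exact binomial test). Chromosome IV went the other way, with 22 of 70 outer (31.4%, adjusted p = 0.0102, exact binomial test). The outer share was 63.8% on III (adjusted p = 0.0639, exact binomial test) and 55.8% on II (adjusted p = 0.542, exact binomial test). These shares differed among the chromosomes (exact Freeman-Halton test, p = 0.000118). Replicate 1 gave the same answer (p = 0.00824, exact test), while replicate 2 missed the threshold (p = 0.0628, exact test). Without chromosome IV the difference was not detectable (p = 0.421, exact test). In the single replicate lists the outer share of IV was 29.6% and 39.4%, and that of V was 72.2% and 70.6%. Neither passed the adjusted test there (lowest adjusted p = 0.104, exact binomial tests), and with runs counted once V had 17 of 28 outer peaks (adjusted p = 0.345, exact binomial test) and IV 17 of 53 (adjusted p = 0.0506, exact binomial test).

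In steps of 5% of the length from the end inwards, the arms held 49, 47, 33, 31 and 51 peaks. The low step between 15 and 20% was not shared by all chromosomes. It held 2 peaks on II, 4 on III and 2 on V, but 23 on IV, where it was the fullest. In replicate 1 the same step held 8 peaks, 7 of them on IV. Replicate 2 had 12 there, of which 9 were on IV and 0 on V. On V both steps from 10 to 20% held 2 combined peaks each, against 14 and 13 in the steps nearest the ends.

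**Figure D3:**
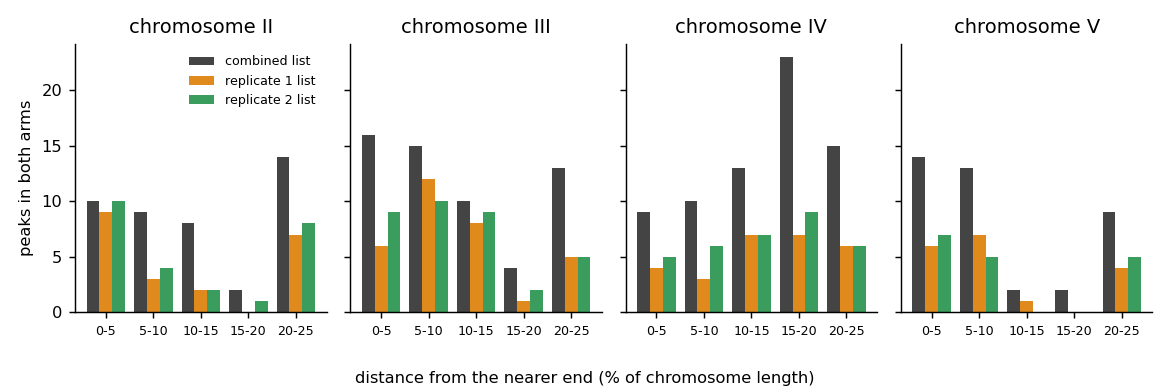
Number of arm peaks by distance from the nearer chromosome end, in steps of 5% of the length, for each chromosome and list (left and right arms summed). Right ends were taken at the farthest peak in any list. Chromosome IV has its highest bar, 23 combined peaks, in the step where II, III and V have 2 to 4.

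The longest stretches without any combined peak also differed between arms. The longest was on the right arm of V, chromosome V, 16965996 to 18967638, or 2002 kb. The left arm of II had 1653 kb without a peak, from 1320860 to 2973803, and the left arm of V had 1111 kb, from 2600866 to 3711500. In the other 5 arms the longest such stretch ran from 442 kb on the right of III to 685 kb on the right of II. Between the last peak of the left arm of II, 2973804 to 2974275, and the first centre peak, 3958677 to 3959421, lay 984401 bp without a peak. Of the 62 complete windows of 500 kb counted from the ends, 12 held no peak, the median was 2, and 18 held 5 or more.

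At the left ends the outermost peaks lay 24 kb from the end on II, 63 kb on III, 391 kb on IV and 726 kb on V, by their midpoints. On the right the length of each chromosome was itself taken from the farthest peak in any list, so the distance there is about 0 by construction. The outermost right peaks were still called in replicate lists on 3 of the 4 chromosomes. They were chromosome II, 15025422 to 15026084 (q = 3.82e-11), chromosome IV, 17279102 to 17281962 (q = 2.24e-26), and chromosome V, 20780719 to 20781542 (q = 1.66e-07), each in both lists. The one on III, 13763083 to 13764133 (q = 3.68e-08), was found in neither list.

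At the bounds, the nearest arm peaks lay between 66.9 kb (right of II) and 782 kb (left of II) outside them, and the nearest centre peaks between 15.4 kb (left of III) and 570.2 kb (right of IV) inside. On the left of III, for example, the peak from 3317811 to 3318846 (q = 5.24e-24) was counted in the arm and the one from 3456244 to 3456579 (q = 1.24e-06) in the centre. No peak lay on a bound.

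The densest 500 kb of any arm was on the right of II, 3000 to 3500 kb from the farthest peak end, and was chosen after its values were seen. Its 13 combined peaks stretched from 11545194 to 11980388 and formed 7 runs. Replicate 1 and replicate 2 each had 7 peaks there, and 6 of the 13 combined peaks were found in both lists. They included 3 of the 10 arm peaks with the smallest q: 11634849 to 11637901, and the neighbours 11756169 to 11757080 and 11761652 to 11762481. Between those neighbours lay a further peak, 11759167 to 11759604 (q = 2.07e-24), also found in both lists. The next fullest windows held 9 peaks each, on the right of III at 0 to 500 kb and at 1000 to 1500 kb, and on the left of IV at 3000 to 3500 kb.

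The strongest arm peak was chromosome V, 723453 to 728370, with q = 1.5e-127 and a width of 4918 bp. It ranked 6 in the combined list, 5 in replicate 1 (q = 1.34e-68) and 6 in replicate 2 (q = 2.43e-56). Replicate 1 drew it 4624 bp wide and replicate 2 4770 bp, so both lists gave nearly the same interval. It was also the outermost peak of the left arm of V and the start of a run of 4 peaks that ended at 731817.

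The second was chromosome II, 14599105 to 14609768, the widest arm peak at 10664 bp (q = 2.74e-111). Each replicate list divided it into 3 peaks, the best of them at rank 10 in replicate 1 (q = 2.67e-40) and at rank 20 in replicate 2 (q = 2.52e-29). It was the arm peak divided into the most parts. On the same arm, chromosome II, 14404887 to 14408290 (3404 bp, q = 4.76e-69), was divided into 2 peaks in each replicate list. The third by q was chromosome IV, 14032535 to 14035053 (q = 9.09e-82), with q = 1.96e-35 in replicate 1 and 1.3e-42 in replicate 2.

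Of the 10 strongest arm peaks, 5 lay on the right of II, 2 on the left of IV, and 1 each on the right of IV, the left of V and the right of III. All 10 were found in both replicate lists. The left arm of IV contributed 3644596 to 3646883 (q = 3.83e-60) and 654702 to 655378 (q = 3.53e-39), the second only 677 bp wide. On the right of III the peak was narrower still, 10758915 to 10759433, at 519 bp with q = 3.84e-43. It ranked 40 in replicate 1 and 22 in replicate 2.

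The other 3 arms had weaker leaders. In the left arm of II the best peak was 1232877 to 1233429, which ranked 110 in the combined list (q = 1.26e-20). Replicate 1 gave it q = 3.99e-14, and replicate 2 gave q = 4.35e-06. The left arm of III was led by 1615887 to 1617195 (q = 2.28e-32) and the right arm of V by 20772101 to 20774704 (q = 1.59e-25). The latter lay about 8 kb from the farthest peak end on V, and its distance from the true chromosome end is unknown. So the left arm of II held both the fewest peaks and the weakest leading peak of the 8 arms. The best of few peaks tends to be weaker than the best of many, so these are not separate traits. The 8 peaks on the left of II had a median q of 1.21e-07, against 5.41e-08 for the 35 on the right of II. The median q was larger still on the left of V (1.24e-06), the right of IV (2.04e-07) and the right of V (1.4e-07). In both arms of III and on the left of IV it was smaller.

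The strength of the peaks was compared between arms and centres by their place in the combined list. In the best 20% of the whole combined list, which by construction holds 20.0% of all peaks, were 45 of 211 arm peaks (21.3%) and 70 of 381 centre peaks (18.4%). The difference of 2.95 percentage points was not detectable (interval -3.57 to 9.95, Fisher's exact test, p = 0.388, adjusted 0.491). The median q was 4.08e-08 in the arms, 2.66e-07 in the centres and 6.43e-08 over all 855 peaks.

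How many arm peaks had a counterpart called in each replicate list was counted by an overlap of at least 1 bp. Over the whole combined list 33.2% of peaks were found in both replicate lists and 48.4% in neither. In the arms 79 of 211 were found in both, or 37.4% (interval 30.9 to 44.3%), 14 in replicate 1 alone, 24 in replicate 2 alone and 94 in neither, or 44.5% (37.7 to 51.5%). The centres had 119 of 381 in both, or 31.2%. The difference of 6.21 percentage points (interval -1.69 to 14.2) did not pass (Fisher's exact test, p = 0.146, adjusted 0.364). Left and right arms had 40.4% and 35% in both lists (Fisher's exact test, p = 0.475, adjusted 0.491). Outer and inner stretches had 41.4% and 33% (Fisher's exact test, p = 0.254, adjusted 0.491).

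By single arms the share found in both lists ran from 27.8% on the right of V, 5 of 18 peaks, to 59.1% on the left of III, 13 of 22. The left arm of III had 6 peaks in neither list, while the left arm of II had 5 of its 8 in neither. In the step from 15 to 20% of the length, 5 of 31 peaks were found in both lists (16.1%), against 37.3 to 45.5% in the other 4 steps. That step also had the largest median q (1.58e-07) and the smallest median width (599 bp) of all steps, and 23 of its peaks were on IV. These shares by arm and by step are descriptions without a test.

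Support followed the q-value, as is largely built in where lists share libraries. By its name the combined list draws on the same ChIP libraries as the replicate lists, though how it was made is not stated. The shares below are therefore descriptions and not independent support. Of the 45 arm peaks in the best 20% of the combined list, 43 had a counterpart in each replicate list (95.6%, interval 84.9 to 99.5%). The next 20% gave 33 of 43 (76.7%, 61.4 to 88.2%), the third 3 of 47 (6.38%, 1.34 to 17.5%), and the last 2 groups 0 of 35 and 0 of 41, for which the upper limits are 10% and 8.6%. In the centres the first 3 groups gave 95.7, 67.1 and 6.94%. Within each group the intervals of arms and centres overlapped. The replicate lists end at q = 5.03e-05 and 5.36e-05, and the combined list at 7.51e-05. Combined q was at most 6.28e-07 in the group with 3 of 47 arm peaks in both lists. It was at most 1.22e-05 in the group with 0 of 35. Both limits lie below the ends of the replicate lists. They are not directly comparable with those ends, as combined q was smaller than both replicate values in 74 of 75 matched arm peaks. Why most peaks in the groups with 3 of 47 and 0 of 35 lacked a counterpart in each list was not tested.

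**Figure D4:**
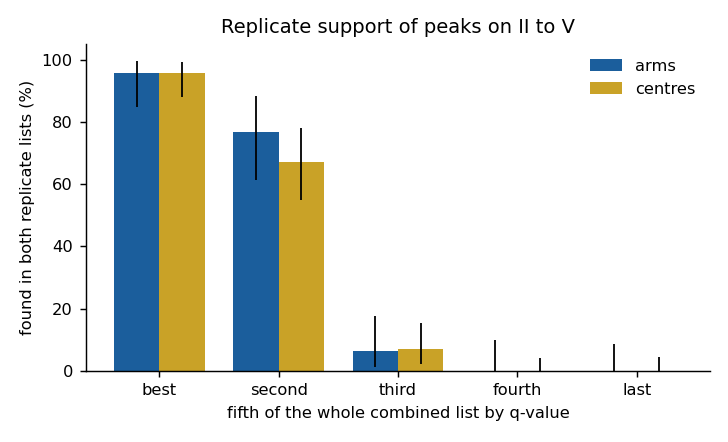
Share of combined peaks (%) found in both replicate lists, for peaks in the arms and in the centres of II to V, in 5 equal groups of the whole combined list by q-value. Bars carry 95% exact binomial intervals over peaks. Arms and centres fall together, from 95.6 and 95.7% to 0 in the last 2 groups. By name, the combined list shares its ChIP libraries with the replicate lists.

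The strongest arm peak in neither replicate list was chromosome II, 12787554 to 12788294, at rank 255 with q = 8.31e-12. Replicate 1 alone supported chromosome III, 12606668 to 12608923 (q = 1.29e-18), the best of the 14 such peaks. Replicate 2 alone supported chromosome III, 13718307 to 13721349 (q = 5.64e-16), the best of 24. It was 3043 bp wide, the sixth widest of the arm peaks.

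Read from the replicate lists themselves, agreement was high. Over the whole lists 78.9% of replicate 1 peaks and 77.4% of replicate 2 peaks overlapped the other list. In the arms 83 of 98 replicate 1 peaks did so, or 84.7% (interval 76 to 91.2%), and 84 of 110 replicate 2 peaks, or 76.4% (67.3 to 83.9%). The centres gave 79% and 73.9%, and neither difference was detectable (Fisher's exact test, p = 0.323 and 0.676). All 14 replicate 1 peaks on the left of III had a counterpart in replicate 2, and on the right of V 5 of 8 had one. The combined list lacked 2 of the arm peaks of replicate 1 and 3 of those of replicate 2.

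Where 1 combined arm peak matched exactly 1 peak in each replicate list, the intervals could be compared directly. Among these 75 peaks the midpoints in the replicate lists lay a median of 41 bp apart, and 63 of the 75 lay within 200 bp. The shared length was a median of 83.6% of the length covered by either, and it fell under 50% in 6 peaks. Replicate 1 gave the wider interval in 43 and replicate 2 in 32. The order by q was similar in both (Spearman's rho = 0.67) and so was the order by width (rho = 0.80). These are descriptions across peaks that share libraries, without a test. The combined q was smaller than both replicate values in 74 of the 75.

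**Figure D5:**
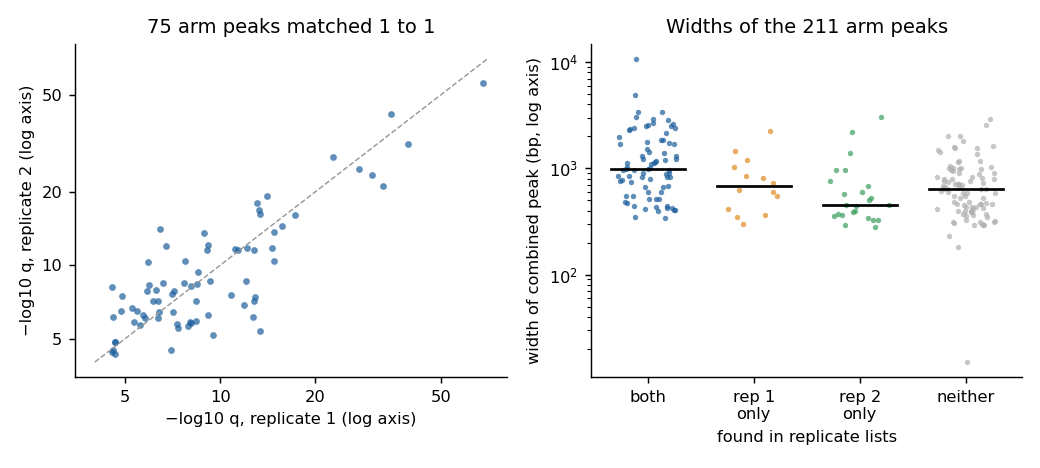
Left, −log10 q in replicate 1 against replicate 2 for the 75 arm peaks matched 1 to 1 (both axes logarithmic, dashed line of equal values). Right, width of each of the 211 arm peaks (bp, log axis) by the replicate lists in which it was found, with medians as lines at 992, 676, 450 and 635.5 bp.

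Widths of the arm peaks ran from 15 to 10664 bp with a median of 725 bp, and the middle 50% lay between 438 and 1156.5 bp. The median was 670 bp in the centres and 695 bp over the whole list. Wider than 695 bp, as 49.9% of all combined peaks were, were 110 of 211 arm peaks (52.1%) and 182 of 381 centre peaks (47.8%). The difference of 4.36 percentage points was not detectable (interval -4.02 to 12.7, Fisher's exact test, p = 0.345, adjusted 0.491). The narrowest, chromosome III, 11239299 to 11239313, spanned 15 bp and was found in neither list. Widths of 3000 bp or more occurred in 6 arm peaks and 17 centre peaks. The 5 widest were the 2 divided peaks on the right of II and 11634849 to 11637901 on the same arm (3053 bp), the leading peak of V, and chromosome III, 832914 to 836322 (3409 bp, q = 6.16e-18).

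The median width was 600.5 bp in the left arms and 788 bp in the right arms. Wide peaks made up 40 of 94 on the left (42.6%) and 70 of 117 on the right (59.8%), a difference of -17.3 percentage points (interval -30 to -3.71). The unadjusted test passed and the adjusted one did not (Fisher's exact test, p = 0.0132, adjusted 0.0662). On IV 13 of 42 peaks were wide on the left and 18 of 28 on the right, and on II 3 of 8 and 24 of 35. On III the numbers were 12 of 22 and 19 of 36, and on V 12 of 22 and 9 of 18. In replicate 2 the shares above that list's own median were 48.1% and 48.3%, and in replicate 1 they were 50% and 53.7%.

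Adjacent peaks within an arm were separated by a median of 59 kb, with the middle 50% between 4.65 and 206 kb, against 37 kb in the centres, where peaks were also denser. A neighbour within 5000 bp was present for 45.7% of all combined peaks, for 88 of 211 arm peaks (41.7%) and for 200 of 381 centre peaks (52.5%). The difference of -10.8 percentage points (interval -18.9 to -2.38) passed the unadjusted test and not the adjusted one (Fisher's exact test, p = 0.0129, adjusted 0.0662). It was not seen at a limit of 1000 bp, with 22.3% and 22.8%, nor in replicate 1, with 39.8% in the arms and 37.6% in the centres. Replicate 2 gave 36.4% in the arms and 42.6% in the centres. Within 10000 bp the shares were 47.9% and 59.8% (adjusted p = 0.0571, Fisher's exact test). Arms of the outer 20% and 30% gave differences of -11 and -10.2 percentage points. Left and right arms had 44.7% and 39.3% with a close neighbour (Fisher's exact test, p = 0.483, adjusted 0.491). By single arms the share was highest on the right of V, 10 of 18, and on the left of IV, 22 of 42, and lowest on the left of II, 2 of 8.

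The 211 arm peaks formed 159 runs: 123 single peaks, 23 pairs, 10 runs of 3 and 3 runs of 4. All 3 runs of 4 lay in outer stretches of left arms. The first, chromosome V, 723453 to 731817, covered 6707 of 8365 bp and held 3 peaks in replicate 1 and 4 in replicate 2. The second, chromosome III, 343634 to 355360, had a best q of 5.18e-27, and the third, chromosome V, 1151222 to 1158830, had 6.62e-22. Each of these held 3 peaks in either replicate list. Of the 13 runs of 3 or more, 11 had peaks in both replicate lists. The exceptions were chromosome V, 20707078 to 20712680, with no peak in replicate 1 and 1 in replicate 2, and chromosome IV, 2704091 to 2711583, with 1 in replicate 1 and none in replicate 2. Another run of 3 held the last combined peaks on the right of V, 20772101 to 20781542, with 3 peaks in replicate 1 and 2 in replicate 2.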

How the data were processed

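Samples were grouped by title into 2 ChIP and 2 input libraries; the descriptions name them the other way round, but the files are attached to those titled ChIP. Per the labels' protocols, worms were fixed with 2% formaldehyde and 10% of the cleared extract, or a fixed volume of it, was set aside as input. The authors deposited peak intervals with a q-value for each peak, called with PeakSeq on WormBase WS180 per the file headers and source column. Coordinates are given as deposited. Aligner, filters, threshold, depth, use of input and the making of the combined list are not stated in the labels or headers. Whether the replicates were separate cultures is not stated.

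Lengths are the farthest peak ends in any list, lower bounds that run from 13.8 Mb (III) to 20.8 Mb (V). Tests were exact binomial, Fisher's exact and Freeman-Halton tests over peaks, two-sided, with Benjamini-Hochberg adjustment over 10 tests or over 4 chromosomes. Intervals are 95% Clopper-Pearson for shares and Newcombe for differences, and cover counting error only. The overlap count and the tests of left share and of support in arms against centres were tried on simulated lists. Simulated peaks were placed independently and both replicate lists were the same, so clustered peaks and unlike replicates were not covered. Regions named are the 10 best arm peaks, the best and outermost of each arm, those nearest the bounds, the 5 widest, the most divided, runs of 4, and the best in neither list; others were chosen after their values were seen. Members and lists were chosen with earlier results of these data known. Alternatives are given in the closing section. Python 3.11.15, NumPy 2.4.6, SciPy 1.17.1, pandas 2.3.3 and matplotlib 3.10.9 were used.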

Additional observations from a re-analysis of the deposited data

Results flagged for a closer look

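Splits of the arm peaks differed between chromosomes. The share in the left arm was 18.6% on II, 37.9% on III, 60% on IV and 55% on V (exact Freeman-Halton test, p = 6.37e-05). The share in the outer stretch of the arms was 55.8% on II, 63.8% on III, 31.4% on IV and 70% on V (exact Freeman-Halton test, p = 0.000118). Both comparisons between chromosomes were chosen after the counts were seen.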

How the results depend on the processing

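Alternatives to the 10 planned tests left each on its side of the adjusted threshold, which none passed. Directions turned in 8 cases, given as differences in percentage points. With arms of the outer 30%, the outer share lay -0.951 points from 50%. In the better 50% of the combined list, wide peaks in arms against centres came to -2.2 and close neighbours to 3.27. Close neighbours on the left against the right came to -1.91 within 10000 bp. Leaving out a replicate gave ranges of -1.25 to 3.00 for wide peaks, -6.25 to 2.22 for close neighbours and -1.48 to -1.12 for the best 20%, all arms against centres. The alternatives for the left share by chromosome, and all other comparisons by chromosome, were added after seeing the data. The left share of II, -31.4 points from 50%, ranged from -35.7 to -34 in single replicate lists; it lost the adjusted threshold with peaks found in both lists (-31.2) and the outer 20% (-22.4). Without the densest window, picked for its count, it lay -26.9 points from the 53.6% that the remaining length gives (adjusted p = 0.0204, exact binomial test). The outer share of IV, -18.6 points, was -20.4 to -10.6 in single lists, -17.9 with runs counted once, -11.9 with peaks found in both lists and -13.2 with the outer 30%, each short of the threshold. That of V, 20 points, was 20.6 to 22.2, 10.7, 21.4 and 8, likewise. With arms of the outer 20% both shares kept the threshold. They lay -15.5 points from 50% on IV (adjusted p = 0.04, exact binomial test) and 37.1 on V (adjusted p = 0.000136, exact binomial test). The range of outer shares between chromosomes, 38.6 points, lost the threshold with peaks found in both lists (33.3) and without chromosome IV (14.2), and was 31.2 to 42.6 in single lists. That range kept the threshold with the outer 20% (52.6), the outer 30% (21.2) and runs counted once (29.7). Fewer peaks are tested in most of these; why the calls were lost was not tested. Depth is unknown. No paired analysis was possible because replicate numbers pair ChIP with input, and input has no peak list.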
